A study of Mus musculus with 10 samples.

Results

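The complement system was examined here through 40 of its genes, all of which were found by their Ensembl identifiers among the 55401 genes counted in mouse liver. The list names components, regulators and receptors by their function, and no measured value enters the rule. The members were, however, chosen with earlier results of these data known. By the cell type known to make most of the transcript in liver, 25 were hepatocyte-made, 8 macrophage-made and 7 of other or mixed source. Liver RNA came from 5 wild-type mice and from 5 Thrb hep-/- mice, and stranded mRNA libraries were sequenced on the DNBSEQ platform. Thrb encodes thyroid hormone receptor beta, a nuclear receptor that binds the hormone T3. The knockout mice carried loxP-flanked Thrb alleles and an Afp-Cre transgene, which drives recombination in the hepatocyte lineage, so that the other cells of the liver may still carry intact Thrb. The controls were wild-type littermates in the C57Bl6/J background. All 10 mice received standard chow under a cycle of dark and light of 12 h each and no treatment, and their age, sex and hour of collection are not given in the sources used here. Each library was read as 1 mouse from its numbered title.

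Complement is a set of plasma proteins that cut and activate each other in turn on the surface of microbes and damaged cells. The classical pathway starts when C1q binds antibody, the lectin pathway when collectins or ficolins bind sugars, and the alternative pathway amplifies the deposition of C3. All of them converge on the cleavage of C3 and then of C5, after which C5b to C9 assemble the membrane attack complex, and soluble and membrane-bound regulators hold the cascade in check. Hepatocytes secrete most of the circulating components, several of which rise in the acute-phase response, whereas C1q, properdin and the complement receptors come largely from macrophages, which in liver are the Kupffer cells.

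Total counts ranged from 26477195 to 28590704 per library, at which 3 counts are worth 0.0993 to 0.117 CPM, the counts scaled to a common library total. The targeted gene, Thrb, had 33.4, 34.2, 32.5, 33.5 and 32.9 normalized CPM across the wild-type mice, numbered 1 to 5, and 25.1, 24.9, 28.7, 25.9 and 28.8 across the Thrb hep-/- mice in the same order, and the genotypes did not overlap. Its log2 fold change was −0.32 (standard error, SE, 0.0666, adjusted p = 0.0359 by the quasi-likelihood test of edgeR after Benjamini-Hochberg adjustment). Gene-level counts cannot tell reads of the deleted exons from the rest. The 9 hepatocyte markers measured held 90751 to 131301 CPM in all in wild-type livers and 107267 to 121033 in Thrb hep-/- livers. Most of this sum was Alb, at 60311.5 to 96603 and 71262 to 87569. None of the 9 passed an adjusted p of 0.15, and 1, Ttr, had an unadjusted p under 0.05 by edgeR. Ttr was higher in every Thrb hep-/- mouse than in any wild-type mouse, as in 1.38% of all genes tested (log2 fold change 0.30, SE 0.0978). Single libraries stood apart in several marker lists. Kupffer cell markers were low in wild-type mouse 1. The acute-phase gene Saa1 was highest in wild-type mice 2 and 5, and the summed acute-phase genes in wild-type mouse 2. Erythroid markers were highest in wild-type mice 2 and 3. Transcripts of fat cells were present in Thrb hep-/- mice 1, 4 and 5. The values of each list stand below beside the complement genes to which it was compared.

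Of the 40 complement genes, 37 reached 1 CPM in at least 5 libraries and were tested, and 5 passed an adjusted p of 0.15, where 4.08% of all 12234 genes tested did. All 5 were lower in Thrb hep-/- livers (2.57% of all genes passed in that direction) and all 5 were hepatocyte-made. They were Hc, which encodes C5, C8a, a chain of the membrane attack complex, C4b and C2, which together form the C3 convertase of the classical and lectin pathways, and C4bp, which takes that convertase apart. Their fitted falls were between −0.60 and −0.41 on the log2 scale. At an adjusted p of 0.05, which 1.35% of all genes passed, Hc was the 1 member left. None of the 7 macrophage-made genes tested and none of the 5 tested genes of other or mixed source passed 0.15 with edgeR, and at an unadjusted p under 0.05 there were 1 and 0.

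An unadjusted p under 0.05 was reached by 13 of the 37, against 13.6% of all genes. Of these, 12 were lower in Thrb hep-/- livers (7.41% of all genes) and 1, Colec11, was higher. As a median, the log2 fold change came to −0.29 over the 37, −0.16 over the 25 hepatocyte-made genes, −0.50 over the 7 macrophage-made genes and 0.053 over the 5 others, and that of all genes tested was 0.00054. In bulk tissue fewer cells of a type and less RNA per cell cannot be told apart. Together the 40 genes took 2.76% to 3.52% of all counts in wild-type livers and 2.24% to 2.59% in Thrb hep-/- livers, so the groups did not overlap. C3 alone made up 32.4% to 42.6% of these complement counts.

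**Figure D1:**
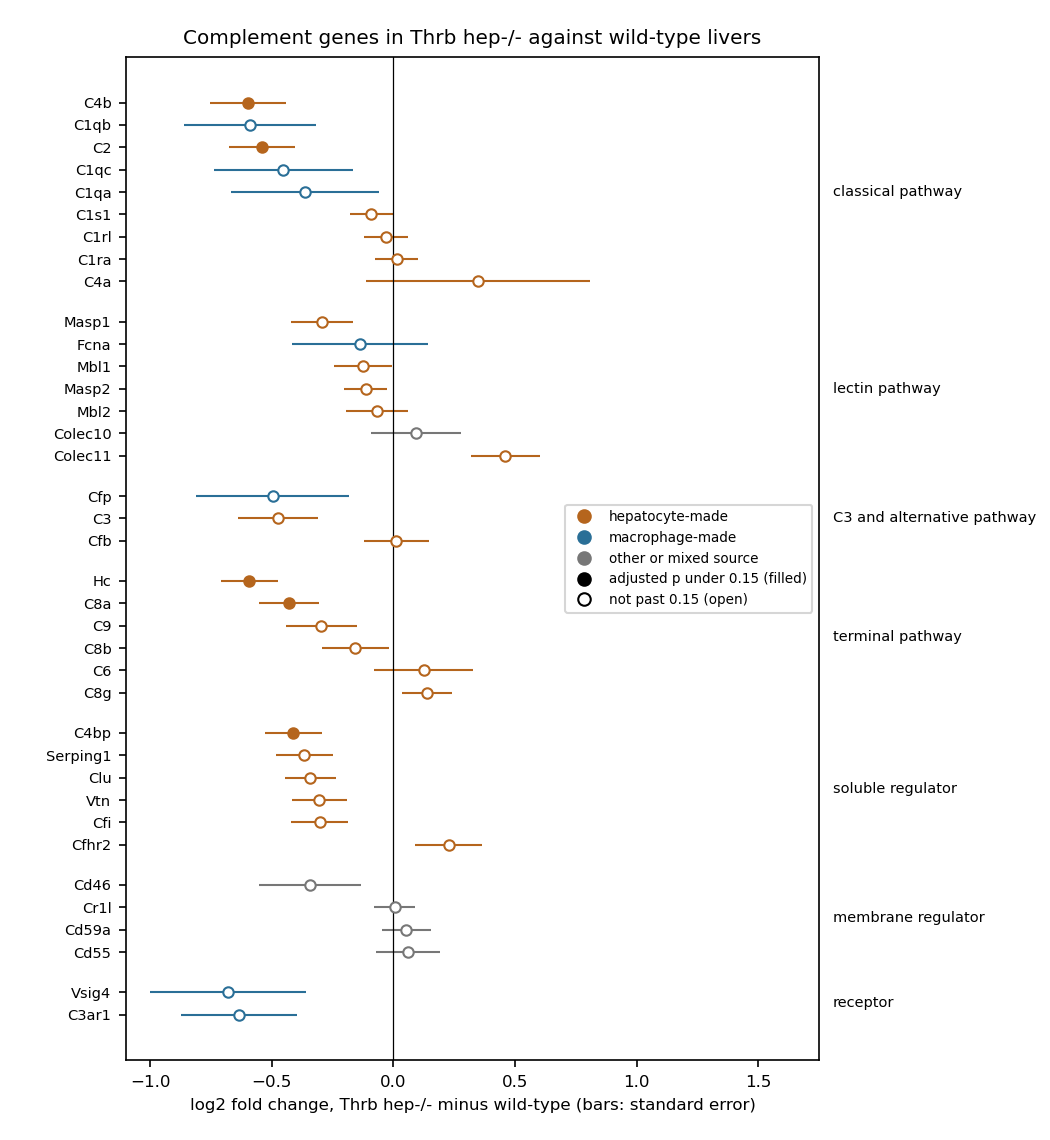
Log2 fold change of the 37 tested complement genes, Thrb hep-/- minus wild-type, from edgeR's fit over 5 mice per genotype, with bars of 1 standard error (SE) either way, genes grouped by role and coloured by the cell type that makes them. The 5 filled points, C4b, C2, Hc, C8a and C4bp, passed an adjusted p of 0.15 and all lie left of 0, as do all 7 macrophage-made genes, none of which passed.

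Levels can be set beside each other between genes once divided by exon length, as TPM, the length-corrected counterpart of CPM. In wild-type livers C3, the component on which all pathways converge, stood highest at 5763 ± 1432 TPM (SD, n = 5). It was followed by Vtn, which encodes vitronectin and keeps the membrane attack complex off host cells, at 4653 ± 379 TPM. The difference between these means was smaller than the SD of C3 over mice. Next came the chaperone-like regulator Clu at 1544 ± 167 TPM, the C1 inhibitor gene Serping1 at 1406 ± 126 and C4b at 1335 ± 84.7. Of the 20 highest genes by wild-type TPM all were hepatocyte-made. The C1q chains lay at 109 ± 39.2 TPM for C1qb, 96 ± 38 for C1qa and 61.7 ± 24.3 for C1qc, with spreads that overlapped. C2 had 19.7 ± 2.11 TPM and Cfb, the protease of the alternative pathway, 5.40 ± 0.915. Both values are uncertain as levels. Exons annotated to other genes cover 79.5% of Cfb exon bases and 46.9% of those of C2 (the readthrough gene Gm20547 for both, and Zbtb12 for C2), and reads that fit more than 1 gene were not counted.

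**Figure D2:**
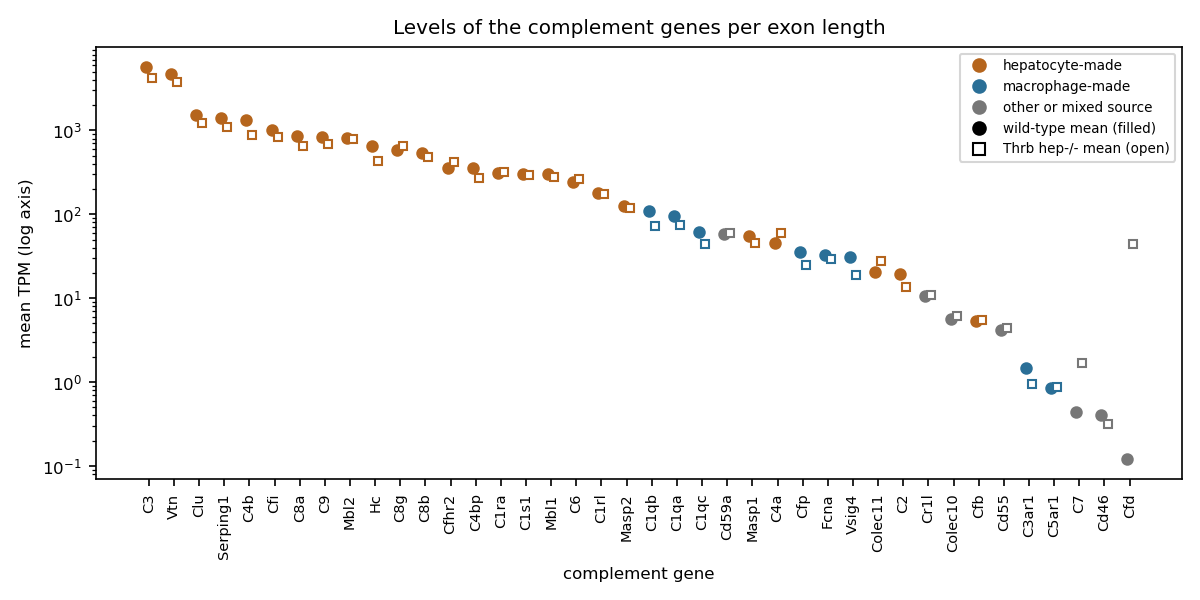
Mean TPM (log axis) of the 40 complement genes in order of the wild-type mean, with filled circles for 5 wild-type mice and open squares for 5 Thrb hep-/- mice, coloured by the cell type that makes the transcript. C3 and Vtn lead, hepatocyte-made genes fill the upper part of the order, and Cfd and C7 at the low end are the genes whose Thrb hep-/- mean lies farthest above the wild-type mean.

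The sequence upstream of the transcription start is shown for 3 of the 5 genes that passed, Hc, C8a and C4bp, and for C3, the most abundant member, because factors that act on these genes would be sought there first. C2 and C4b had no window in the table used, nor did C1qa, C4a, Cfb, Cfi, Masp1, Colec10, Serping1 and Clu. The 250 bases before the RefSeq start on GRCm38.p6 are chr2:35061413-35061662 for Hc, chr4:104876399-104876648 for C8a, chr1:130661619-130661868 for C4bp and chr17:57228137-57228386 for C3, all on the minus strand. Capitals mark matches, on either strand, to the nuclear receptor half-site AGGTCA, the STAT palindrome TTCNNNGAA, the C/EBP pattern TTGCNNAA and the NF-kB pattern, and overlapping matches run together.
Hc: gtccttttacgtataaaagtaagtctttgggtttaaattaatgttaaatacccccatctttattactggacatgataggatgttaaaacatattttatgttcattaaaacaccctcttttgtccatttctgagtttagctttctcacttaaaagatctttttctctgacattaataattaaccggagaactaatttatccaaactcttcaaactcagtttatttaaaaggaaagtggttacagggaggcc
C8a: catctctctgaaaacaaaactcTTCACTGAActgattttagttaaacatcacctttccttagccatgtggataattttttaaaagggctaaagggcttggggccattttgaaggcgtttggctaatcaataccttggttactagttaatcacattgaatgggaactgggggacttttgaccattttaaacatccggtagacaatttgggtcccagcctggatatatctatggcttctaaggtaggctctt
C4bp: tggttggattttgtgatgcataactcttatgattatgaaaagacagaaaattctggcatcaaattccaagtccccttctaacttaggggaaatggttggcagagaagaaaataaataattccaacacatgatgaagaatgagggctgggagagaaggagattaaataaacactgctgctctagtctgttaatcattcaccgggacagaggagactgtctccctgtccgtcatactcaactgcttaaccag
C3: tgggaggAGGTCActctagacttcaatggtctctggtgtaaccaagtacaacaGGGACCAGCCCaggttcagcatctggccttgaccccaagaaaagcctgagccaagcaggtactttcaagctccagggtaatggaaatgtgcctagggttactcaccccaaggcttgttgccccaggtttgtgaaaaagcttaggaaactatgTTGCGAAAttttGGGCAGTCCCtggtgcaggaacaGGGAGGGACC

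In these 250 bases C3 held a half-site, a C/EBP match and 4 overlapping or separate NF-kB matches, C8a held 1 STAT palindrome, and Hc and C4bp held no match. Windows of 300 bases, from 250 before to 50 after the start, were found for 30 of the 40 genes, 32 windows in all. The half-site was in 25% of them and in 16.3% of all 32851 mouse windows. The STAT palindrome was in 21.9% against 8.30%, the C/EBP pattern in 15.6% against 10.8%, and the NF-kB pattern in 40.6% against 50.8%. The C/EBP matches were in C1ra, C1rl, C1s1, C3 and C9, all hepatocyte-made. The DR4 element, a pair of half-sites in direct repeat to which thyroid hormone receptors bind, was searched only as exact copies of AGGTCA. It was in none of the 32 and in 0.0152% of all windows. So rare a match cannot tell these windows from others, and looser forms of the element were not searched. A match is a description of the letters in the window, not a site in use.

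The classical pathway was represented by 9 genes, of which C2 and C4b passed. C2 (chr17:34862604-34898265, minus strand of GRCm38, the build of all positions given) encodes the protease part of the classical C3 convertase. Its normalized CPM were 27.1, 27.7, 31.9, 33.7 and 30.9 in wild-type mice and 21.2, 22.4, 16.3, 16.8 and 27.4 in Thrb hep-/- mice. Thrb hep-/- mouse 5 lay within the wild-type range and the other 4 below it. The fitted log2 fold change was −0.54 (SE 0.134, adjusted p = 0.0744 by edgeR). It was not past 0.15 without wild-type mouse 5 (−0.53, adjusted p = 0.153) or without Thrb hep-/- mouse 3 (−0.46, adjusted p = 0.172), and over all 21 alternatives its adjusted p ran from 0.0105 to 1.

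C4b (chr17:34728380-34743882, minus strand) encodes complement C4, the other part of that convertase, and was by counts the highest gene of the pathway. Wild-type mice had 3242, 3035, 2686, 2916 and 3238 normalized CPM and Thrb hep-/- mice 2729, 2139, 1554, 1516 and 2056. Thrb hep-/- mouse 1 overlapped the lowest wild-type mouse, and mice 3 and 4 were farthest below. Its fitted change on the log2 scale was −0.60 (SE 0.157, adjusted p = 0.0887 by edgeR). The call was lost on leaving out wild-type mouse 2 or 5 or Thrb hep-/- mouse 3, 4 or 5, with adjusted p between 0.155 and 0.218 and log2 fold changes between −0.61 and −0.51. Over all alternatives its adjusted p ran from 0.00556 to 1.

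C4a, the neighbouring copy of C4, did not pass. It had 222, 99.3, 43.1, 56.6 and 143 normalized CPM in wild-type mice and 159, 82.4, 148, 235 and 91.9 in Thrb hep-/- mice, and the groups overlapped over almost their whole range. On the log2 scale the change was 0.35 with a SE of 0.460 (adjusted p = 0.813 by edgeR). The ratio of C4a to C4b was 0.0161 to 0.0684 in wild-type mice and 0.0385 to 0.155 in Thrb hep-/- mice, again overlapping. The copies share 15.2% of the 100-base windows of C4b and 13.1% of those of C4a, from which reads could not be assigned to either gene, and the annotation gives C4a as a processed transcript, so the C4a values are uncertain.

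The serine protease genes of the C1 complex overlapped between genotypes and did not pass. C1s1 had a log2 fold change of −0.09 (SE 0.0883), C1ra 0.01 (SE 0.0879) and the related C1rl −0.03 (SE 0.0905). C1ra shares 35.9% of its 100-base windows with other genes, most of them with C1rb, and reads from those windows were not counted. The 3 chains of C1q are macrophage-made and are given with the other macrophage genes below.

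The lectin pathway had 7 genes, with none past 0.15. Its most abundant gene, Mbl2, encodes a mannose-binding lectin. Mbl2 had 286, 386, 356, 354 and 394 normalized CPM in wild-type mice and 283, 428, 365, 332 and 285 in Thrb hep-/- mice. The groups overlapped throughout, with a log2 fold change of −0.07 (SE 0.129, adjusted p = 0.884 by edgeR), and the sign turned to 0.17 without Thrb hep-/- mice 1, 4 and 5. Mbl1 (−0.13) and Masp2 (−0.11), a protease of the pathway, had SEs of 0.121 and 0.0891. Masp2 shares 54.9% of its exon bases with Tardbp, and reads there were not counted.

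Colec11, which encodes the kidney and liver collectin CL-K1, was the only one of the 13 genes with an unadjusted p under 0.05 that was higher in Thrb hep-/- livers. Its normalized CPM were 11.5, 13.7, 14.9, 13.8 and 11.2 in wild-type mice and 17.1, 24.7, 18.1, 14.6 and 15.2 in Thrb hep-/- mice. Thrb hep-/- mouse 4 lay just inside the wild-type range and the other 4 above it. This was a log2 fold change of 0.46 (SE 0.142, adjusted p = 0.158 by edgeR), which missed 0.15, and it passed without Thrb hep-/- mouse 4 (0.53, adjusted p = 0.138). Its adjusted p ran from 0.0656 to 1 over the alternatives. Its partner Colec10, made largely by stellate cells, had a log2 fold change of 0.09 (SE 0.184). Colec11 was grouped as hepatocyte-made from general knowledge, and bulk counts cannot tell which liver cells held its transcript. All 8 stellate cell markers were fitted higher, as given below, and the part of stellate cells in the level of Colec11 was not tested.

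Masp1, the other protease of the lectin pathway, had 213, 188, 205, 243 and 243 normalized CPM in wild-type mice and 212, 190.4, 164, 131 and 193 in Thrb hep-/- mice. The groups overlapped, and Thrb hep-/- mouse 4 was lowest. The fitted log2 fold change was −0.29 (SE 0.126, adjusted p = 0.332 by edgeR), with an unadjusted p under 0.05.

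C3 (chr17:57203970-57228136, minus strand) had 11585, 14949, 8722, 9419.6 and 14118 normalized CPM in wild-type mice and 8903, 9884, 8146, 7351 and 8039 in Thrb hep-/- mice. Wild-type mice 1, 2 and 5 were above every Thrb hep-/- mouse, whereas wild-type mice 3 and 4 lay within the Thrb hep-/- range. The mean was 11759 ± 2759.8 in wild-type livers and 8465 ± 966 in Thrb hep-/- livers (SD, n = 5), a log2 fold change of −0.47 (SE 0.164) that did not pass (adjusted p = 0.216 by edgeR). It passed without wild-type mouse 3 (−0.57, adjusted p = 0.131), and its adjusted p ran from 0.0601 to 1 over the alternatives. The mice highest in C3, wild-type 2 and 5, were also highest in the acute-phase gene Saa1, as described below. Cfb, whose product cuts C3 in the alternative pathway, overlapped between genotypes. It had 5.29 to 7.55 normalized CPM in wild-type mice and 5.18 to 7.01 in Thrb hep-/- mice, with a log2 fold change of 0.01 (SE 0.133) under the exon overlap given above.

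The terminal pathway had 7 genes, 6 of them tested. Hc (chr2:34983331-35061438, minus strand) encodes C5, the component whose cleavage starts the membrane attack complex. Its normalized CPM were 1920.3, 1610.1, 1540.3, 1467 and 1565 in wild-type mice and 1231, 1033, 944, 948 and 1218 in Thrb hep-/- mice. Every Thrb hep-/- mouse was below every wild-type mouse, as in 2.26% of all genes tested. The mean fell from 1621 ± 175 to 1075 ± 141 (SD, n = 5), a log2 fold change of −0.59 (SE 0.117, adjusted p = 0.0265 by edgeR). By the exact permutation test over the 10 mice, two-sided, p was 0.0079, the smallest that 5 mice against 5 allow. C8a, Clu and Serping1, given below, had the same p, which follows from groups that do not overlap. Hc stayed past 0.15 with each of the 10 mice left out in turn, with log2 fold changes from −0.65 to −0.52. It missed 0.15 without wild-type mice 2 and 5 together (−0.61, adjusted p = 0.163) and with a component of the acute-phase genes as covariate (−0.39, adjusted p = 1). Over all 21 alternatives its adjusted p ran from 1.7e-05 to 1.

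C8a (chr4:104815679-104876398, minus strand) encodes the alpha chain of C8, which inserts into the target membrane. Wild-type mice had 1559, 1277, 1129, 1239 and 1060.4 normalized CPM and Thrb hep-/- mice 926, 981, 775, 917 and 1049. The groups did not overlap, although the lowest wild-type mouse and the highest Thrb hep-/- mouse were close. Its fitted change on the log2 scale was −0.43 (SE 0.123, adjusted p = 0.119 by edgeR). Leaving out wild-type mouse 1, 2 or 4 or Thrb hep-/- mouse 1, 3 or 4 brought it over 0.15, with adjusted p between 0.153 and 0.286 and log2 fold changes between −0.43 and −0.34. Over all alternatives its adjusted p ran from 0.0140 to 1.

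Of the 3 chains of C8, C8a was the 1 that passed. C8b, the beta chain, had a log2 fold change of −0.16 (SE 0.139) and C8g, the gamma chain, one of 0.14 (SE 0.102), neither past 0.15. The ratio of C8a to C8g counts was 2.90 to 4.53 in wild-type mice and 2.03 to 2.87 in Thrb hep-/- mice and did not overlap between genotypes. This ratio was chosen after the values had been seen and is given as a description. The ratio of C8a to C8b overlapped, at 1.94 to 2.82 and 1.71 to 2.26.

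C9, which forms the ring of the pore, had 696 to 986 normalized CPM in wild-type mice and 569 to 854 in Thrb hep-/- mice (log2 fold change −0.30, SE 0.145). C6, which binds to C5b, had 226 to 427 and 268 to 540 (0.12, SE 0.203). Both overlapped between genotypes and did not pass.

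**Figure D3:**
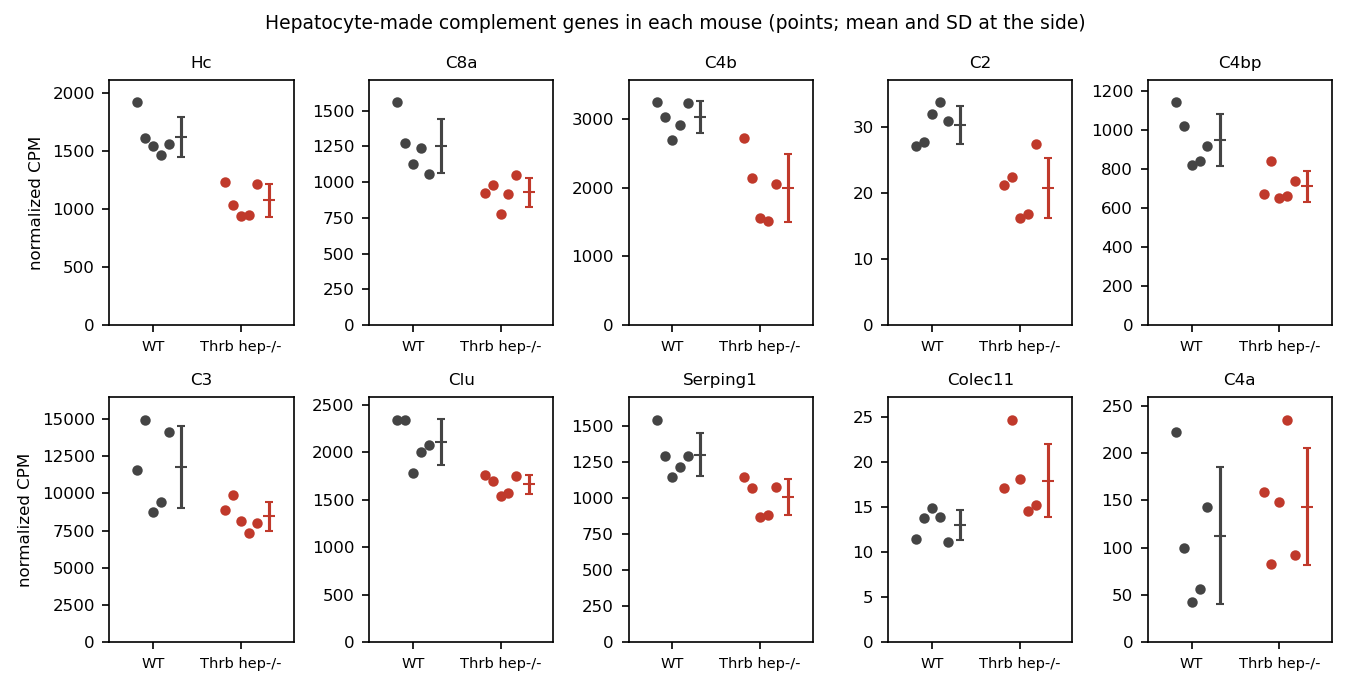
Normalized CPM of 10 hepatocyte-made complement genes in each of 5 wild-type (grey) and 5 Thrb hep-/- (red) mice, replicates 1 to 5 from left to right, with mean and SD beside the points and axes from 0. Hc, C8a, Clu and Serping1 do not overlap between genotypes, C3 is split by wild-type mice 1, 2 and 5, and C4a overlaps widely.

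Of the 6 soluble regulators, 5 had an unadjusted p under 0.05, all lower in Thrb hep-/- livers (7.41% of all genes in that direction), and 1, C4bp, passed 0.15 (4.08% of all genes). C4bp (chr1:130634773-130661632, minus strand) encodes the C4b-binding protein, which speeds the decay of the C3 convertase made of C4b and C2. Its normalized CPM were 1140.0, 1019, 820.3, 838 and 915 in wild-type mice and 670.4, 838, 650.0, 659 and 739 in Thrb hep-/- mice. Thrb hep-/- mouse 2 lay within the wild-type range and the other 4 below it. On the log2 scale the change was −0.41 (SE 0.117, adjusted p = 0.117 by edgeR). It missed 0.15 without wild-type mouse 1, 2 or 5 or without Thrb hep-/- mouse 1, 3, 4 or 5, with adjusted p between 0.164 and 0.280 and log2 fold changes between −0.43 and −0.33. Over all alternatives its adjusted p ran from 0.0144 to 1.

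Clu, which encodes clusterin, had 2346, 2343, 1780.4, 2004 and 2078 normalized CPM in wild-type mice and 1760.3, 1700.0, 1542, 1576 and 1747 in Thrb hep-/- mice. The groups did not overlap. The log2 fold change of −0.34 (SE 0.105) narrowly missed the threshold (adjusted p = 0.155 by edgeR), and it passed without wild-type mouse 3 (adjusted p = 0.109) or Thrb hep-/- mouse 1 (adjusted p = 0.148), and its adjusted p ran from 0.0102 to 1 with the alternatives.

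Serping1, which encodes the C1 inhibitor of the C1 and MASP proteases, had 1546, 1296, 1150.5, 1218 and 1296 normalized CPM in wild-type mice and 1146, 1072, 871, 884 and 1076 in Thrb hep-/- mice. These groups also did not overlap, by a narrow margin between wild-type mouse 3 and Thrb hep-/- mouse 1. This was a log2 fold change of −0.37 (SE 0.116, adjusted p = 0.170 by edgeR). It passed without Thrb hep-/- mouse 1 (adjusted p = 0.119), over a range from 0.0301 to 1. Hc, C8a, Clu and Serping1 were thus the 4 of 37 tested members whose Thrb hep-/- mice were all below the wild-type mice, against 2.26% of all genes tested.

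Vtn, the most abundant regulator, had 4362, 3838, 3182, 3723 and 3709 normalized CPM in wild-type mice and 3052, 3454, 2742, 2828 and 3144 in Thrb hep-/- mice. The groups overlapped at Thrb hep-/- mouse 2, and the log2 fold change of −0.31 (SE 0.113) did not pass (adjusted p = 0.257 by edgeR). Cfi encodes factor I, the protease that inactivates C3b and C4b. It had 1069, 976, 749, 880.3 and 845 normalized CPM in wild-type mice and 674, 866, 701, 663 and 760.2 in Thrb hep-/- mice. Thrb hep-/- mice 2 and 5 lay within the wild-type range, and the log2 fold change was −0.30 (SE 0.117, adjusted p = 0.275 by edgeR). Cfi passed without Thrb hep-/- mouse 2 (−0.36, adjusted p = 0.148), over a range from 0.135 to 1. Cfhr2 was the 1 soluble regulator with a fitted rise, 0.23 (SE 0.137), and did not pass. It shares 16.4% of its 100-base windows with other genes.

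The 4 membrane regulators, which protect host cells from deposited complement, showed no difference past the spread, with 0 of 4 at an unadjusted p under 0.05 by edgeR. Cr1l, which encodes the rodent regulator Crry and was by counts the highest of them, had 48.9, 42.5, 40.1, 44.8 and 42.8 normalized CPM in wild-type mice and 39.1, 48.4, 42.6, 40.6 and 49 in Thrb hep-/- mice. The groups covered the same range, with a log2 fold change of 0.0043 (SE 0.0842) whose sign was not stable over the alternatives. Cd59a (0.05, SE 0.102) and Cd55 (0.06, SE 0.132) overlapped likewise. Cd46, at 1.04 to 1.32 normalized CPM in wild-type mice and 0.596 to 1.27 in Thrb hep-/- mice, was close to the limit for testing.

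The 8 macrophage-made genes are C1qa, C1qb and C1qc, Cfp, which encodes properdin, the ficolin gene Fcna and the receptor genes Vsig4, C3ar1 and C5ar1. All 7 tested had a fitted log2 fold change below 0, as had 49.9% of all genes tested, and none passed 0.15. C1qa had 17.4, 44.2, 49, 32.5 and 52.8 normalized CPM in wild-type mice and 26.2, 42.9, 19, 27.4 and 36.7 in Thrb hep-/- mice. C1qb had 21.1, 52.7, 59.5, 44.2 and 54.6 and 25.5, 40.9, 21, 31.1 and 35.8 in the same order. Wild-type mouse 1 was the lowest wild-type mouse in all 8 of these genes and was below every Thrb hep-/- mouse in all of them except C1qb and C3ar1. The log2 fold changes were −0.36 for C1qa (SE 0.305), −0.59 for C1qb (SE 0.270) and −0.45 for C1qc (SE 0.285).

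Vsig4, the C3b receptor of Kupffer cells and the most abundant receptor by counts, had 6.96, 20.8, 23.2, 15.6 and 23.3 normalized CPM in wild-type mice and 8.06, 15.3, 8.23, 9.997 and 14.6 in Thrb hep-/- mice. Wild-type mice 2 to 5 were above every Thrb hep-/- mouse and wild-type mouse 1 below all of them. The fitted log2 fold change was −0.68 (SE 0.320, adjusted p = 0.391 by edgeR). C3ar1, the receptor for the C3a fragment, had 1.48, 2.52, 3.22, 1.91 and 3.22 normalized CPM in wild-type mice and 1.25, 2.02, 1.30, 1.85 and 1.52 in Thrb hep-/- mice, with a log2 fold change of −0.64 (SE 0.238, adjusted p = 0.264 by edgeR) and an unadjusted p under 0.05. The groups overlapped. With any mouse other than wild-type mouse 1 left out, none of the 7 passed 0.15. Leaving out wild-type mouse 1, the lowest wild-type mouse in all 8 genes, removes the lowest wild-type values, and 485 of all genes then passed. Of the 7, 3 passed in that fit: C1qb (−0.77, adjusted p = 0.0716), Vsig4 (−0.88, adjusted p = 0.0836) and C3ar1 (−0.77, adjusted p = 0.122). Their adjusted p ran from 0.0716 to 1, 0.0836 to 1 and 0.122 to 1 over the alternatives. Cfp (−0.50, SE 0.313) and Fcna (−0.14, SE 0.278) did not pass, and the sign of Fcna turned to 0.025 without wild-type mouse 3. C5ar1, the receptor for C5a, was at 0.265 to 1.33 normalized CPM over all mice and was not tested.

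Markers of Kupffer cells moved with these genes. All 10 markers had fitted values below 0 with none past 0.15 and 4 at an unadjusted p under 0.05 by edgeR, a median of −0.69, and a summed level of 224 to 551 normalized CPM in wild-type mice and 248 to 383 in Thrb hep-/- mice. Wild-type mouse 1 was the lowest wild-type mouse in 9 of the 10. None of the 10 was at 0 in any mouse. Most of the blood cell markers tested were also fitted lower. The 9 markers of blood myeloid and lymphoid cells summed to 36.2 to 99.2 normalized CPM in wild-type mice and 38.3 to 66.0 in Thrb hep-/- mice. Most of this sum was Lyz2, at 25.6 to 87.2 and 30.7 to 56.9. Of the 3 tested, all were fitted lower and 1, the neutrophil gene S100a8, passed (−2.67, SE 0.751, adjusted p = 0.134 by edgeR). S100a8 had 1.67, 6.01, 5.15, 0.664 and 1.09 normalized CPM in wild-type mice and 1.08, 0.562, 0.412, 0.0993 and 0.141 in Thrb hep-/- mice. The groups overlapped, wild-type mice 2 and 3 were far highest, and the gene reached the limit for testing mainly through wild-type mice. Among those too low to be tested, the lymphoid genes Cd79a and Cd3e had higher means in Thrb hep-/- mice. These means were 0.714 against 0.550 normalized CPM for Cd79a and 0.188 against 0.105 for Cd3e. The other untested markers had lower means. The 5 erythroid markers summed to 191 to 308 and 149 to 232, with 4 fitted lower, 2 at an unadjusted p under 0.05 and none past 0.15 by edgeR. The Kupffer cell lectin Clec4f had 29.5, 81.1, 94.8, 64.7 and 69.9 normalized CPM in wild-type mice and 46.6, 73.9, 34.2, 48.2 and 58.8 in Thrb hep-/- mice. The ratio of C1qa to Clec4f lay between 0.502 and 0.755 in wild-type mice and between 0.557 and 0.624 in Thrb hep-/- mice, whereas both genes ranged several-fold between mice. C1qb per Clec4f was 0.628 to 0.781 in wild-type mice and 0.547 to 0.645 in Thrb hep-/- mice, and Vsig4 per Clec4f 0.236 to 0.333 and 0.173 to 0.248. With the first component of the Kupffer cell markers as covariate, an alternative chosen after seeing the data, the median of the macrophage-made genes was 0.15. Hc was the 1 complement gene past an adjusted p of 0.15 in that fit, among 166 of all genes. The log2 fold changes of the hepatocyte-made genes were then −0.65 for Hc, −0.60 for C4b, −0.50 for C8a, −0.45 for C4bp and −0.43 for C2. That component had an absolute correlation of 0.50 with genotype over the 10 mice. The part of the Kupffer cell markers in these results beyond that covariate was not tested.

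**Figure D4:**
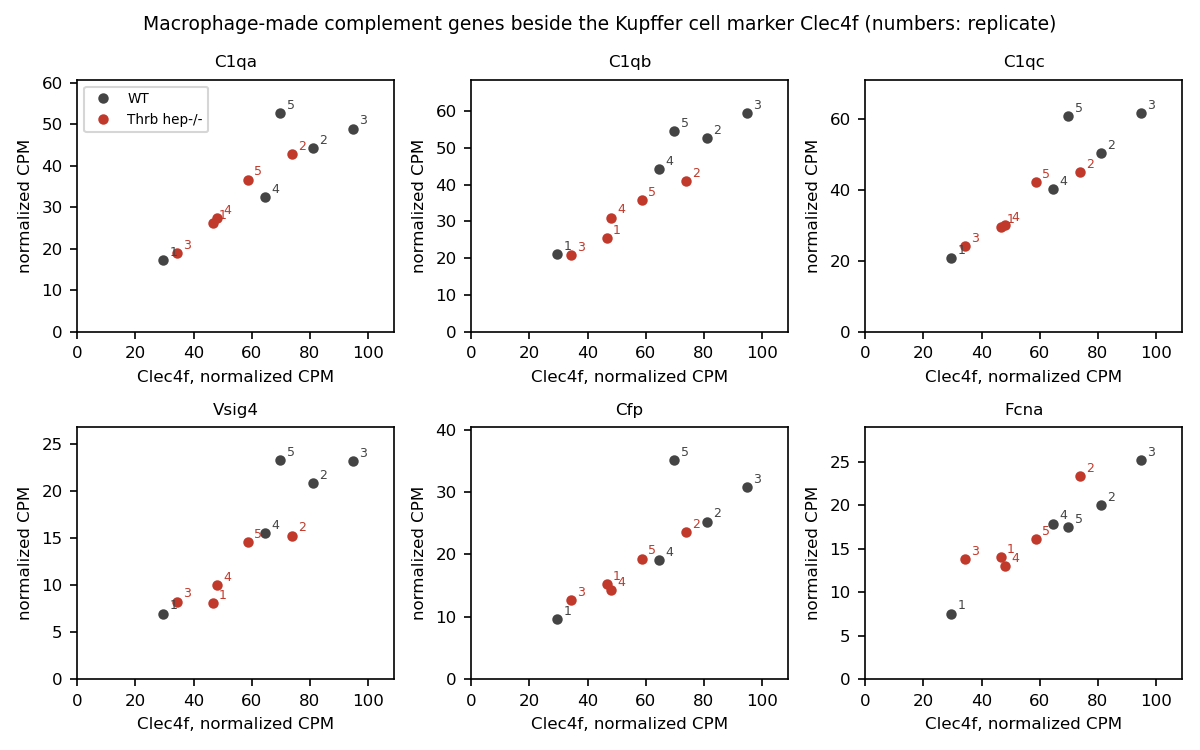
Normalized CPM of 6 macrophage-made complement genes (vertical axes) against normalized CPM of the Kupffer cell marker Clec4f (horizontal axes), 1 point per mouse, grey for 5 wild-type and red for 5 Thrb hep-/- mice, numbered by replicate. Wild-type mouse 1, with 29.5 normalized CPM of Clec4f, sits at the lower left in every panel, below the Thrb hep-/- mice in Clec4f.

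Cfd and C7 were too low in most mice to be tested with the filter used, Cfd being high in single mice and C7 in all Thrb hep-/- mice. Cfd encodes factor D, also known as adipsin, the protease of the alternative pathway that fat cells secrete. It had 0.0378, 0.105, 0.0357, 0.0391 and 0 normalized CPM in wild-type mice, all at or under the level that 3 counts give, and 17.3, 0.562, 0.103, 38 and 22.6 in Thrb hep-/- mice. The high values were those of Thrb hep-/- mice 1, 4 and 5, and mice 2 and 3 stayed under 1. C7, a terminal component made mostly outside hepatocytes, had 0.719, 0.455, 0.465, 0.625 and 0.112 in wild-type mice and 2.15, 0.975, 0.892, 2.35 and 2.48 in Thrb hep-/- mice, so every Thrb hep-/- mouse was above every wild-type mouse, as in 1.38% of the genes tested. C7 is singled out after its values had been seen, and this is a description. Mice 1, 4 and 5 were again the highest. With no filter on low counts, C7 had a log2 fold change of 1.88 (adjusted p = 0.0286 by edgeR) and Cfd an adjusted p of 0.123.

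The same 3 Thrb hep-/- mice held fat cell transcripts. Adipoq, the adipocyte hormone adiponectin, was at 3.37, 7.12 and 5.16 normalized CPM in Thrb hep-/- mice 1, 4 and 5, at 0.0343 in mouse 3 and at 0 in the other 6 mice. The lipid droplet gene Plin1 was at 5, 6.02 and 6.97 in those 3 mice and at 0 in the other 7. Over the 6 adipocyte markers the summed level was 5.31 to 8.90 normalized CPM in wild-type mice and 11.6 to 50.5 in Thrb hep-/- mice. The 2 markers that could be tested, Plin4 and Cidec, passed and were higher, and both are also expressed by hepatocytes. Without Thrb hep-/- mice 1, 4 and 5, C2, Hc and Colec11 were the complement genes past 0.15, among 173 of all genes, with 2 Thrb hep-/- mice left. The log2 fold changes were −0.71 for Hc, −0.70 for C4b, −0.64 for C2, −0.51 for C8a and −0.34 for C4bp. Stellate cell markers, another source of C7, summed to 95.7 to 152 normalized CPM in wild-type mice and 137 to 161 in Thrb hep-/- mice. All 8 were fitted higher, with a median log2 fold change of 0.26, 3 had an unadjusted p under 0.05 by edgeR, and 1, Des, passed 0.15. The part of fat tissue or stellate cells in the levels of Cfd and C7 was not tested beyond these values.

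**Figure D5:**
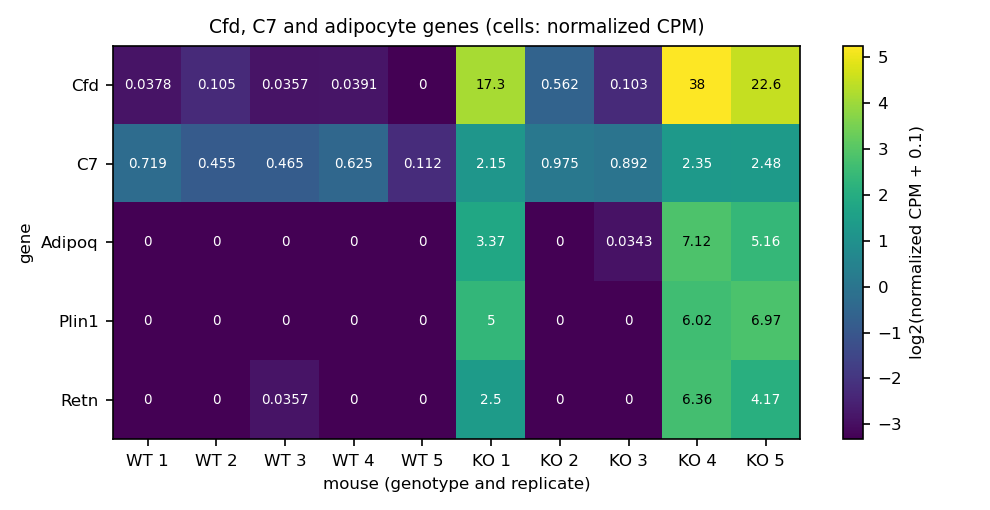
Normalized CPM (numbers) and log2(normalized CPM + 0.1) (colours) of Cfd, C7 and the adipocyte genes Adipoq, Plin1 and Retn, a row per gene and a column per mouse, 5 wild-type (WT) and 5 Thrb hep-/- (KO). Cfd, Adipoq, Plin1 and Retn are at or near 0 in all mice except Thrb hep-/- mice 1, 4 and 5, where Cfd reaches 17.3, 38.0 and 22.6, while C7 is present at low level in all.

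Acute-phase genes, whose products the liver releases under inflammatory cytokines and which include no complement member here, were mostly fitted lower. Of the 25 hepatocyte-made complement genes 18 were fitted lower, where 49.9% of all genes were, and 7 were fitted higher. Their median log2 fold change was −0.16. Of 25 acute-phase genes listed, 24 were tested and 15 passed 0.15 (4.08% of all genes). All 15 were lower in Thrb hep-/- livers (2.57% of all genes), and the median log2 fold change of the acute-phase genes was −1.09. The summed level of the acute-phase genes was 38830 to 89247 normalized CPM in wild-type mice and 26049 to 43112 in Thrb hep-/- mice. Saa1, the serum amyloid gene, had 1009.8, 7135, 265, 822 and 3669 normalized CPM in wild-type mice and 66.1, 158, 25.8, 33 and 112 in Thrb hep-/- mice. Every Thrb hep-/- mouse was below every wild-type mouse, and wild-type mice 2 and 5 were far above the other wild-type mice. Among wild-type mice, mouse 1 was highest in 15 of the 25 hepatocyte-made complement genes and mouse 2 in 14 of the 25 acute-phase genes, whereas mouse 3 was lowest in 12 and in 19 of them. Among Thrb hep-/- mice, mouse 2 was highest in 12 of the hepatocyte-made and 17 of the acute-phase genes. Without wild-type mice 2 and 5, none of the complement genes and 88 of all genes passed 0.15 with 3 wild-type mice left. The fitted log2 fold changes were then −0.61 for Hc, −0.57 for C2, −0.56 for C4b, −0.49 for C8a and −0.39 for C4bp, against −0.59, −0.54, −0.60, −0.43 and −0.41 with all mice, and the median of the hepatocyte-made genes was −0.23. With the first component of the acute-phase genes as covariate, none passed, the log2 fold changes were −0.39 for Hc, −0.43 for C2, −0.12 for C4b, −0.26 for C8a and −0.051 for C4bp, the median of the hepatocyte-made genes was −0.0047 and 8 of all genes passed. That component had an absolute correlation of 0.842 with genotype over the 10 mice, so the shares of the covariate and of genotype cannot be told apart.

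Of 22 other genes of the complement system outside the 40, 14 were tested. An unadjusted p under 0.05 was reached by 5 of the 14 (13.6% of all genes), 4 of them lower, and 1 passed 0.15 (4.08% of all genes). This was Susd4, a membrane protein that binds C1q, with 44.6, 38, 20.2, 43.8 and 37.2 normalized CPM in wild-type mice and 22.3, 25.3, 14.4, 14.7 and 25.7 in Thrb hep-/- mice. The groups overlapped through wild-type mouse 3, and the log2 fold change was −0.84 (SE 0.237, adjusted p = 0.127 by edgeR). Of 21 genes for transcription factors and signalling proteins known to act on complement genes, all were tested and none passed by edgeR's quasi-likelihood test. Against 13.6% of all genes, 4 of the 21 reached an unadjusted p under 0.05. These were the receptor gene Il1r1 (−0.71, SE 0.265) and the kinase gene Jak1 (−0.16, SE 0.0672), fitted lower, and the receptor subunit gene Il1rap (0.29, SE 0.128) and the NF-kB inhibitor gene Nfkbia (0.29, SE 0.112), fitted higher. Over the 21 genes 14 were fitted lower and 7 higher, with a median log2 fold change of −0.05. Among the others were Osmr (−0.46, SE 0.231), Cebpd (−0.29, SE 0.227), Stat3 (−0.26, SE 0.203) and Cebpb (−0.19, SE 0.126), fitted lower. Cebpa (0.18, SE 0.126), Rela (0.08, SE 0.0945) and the hepatocyte factor Hnf4a (0.05, SE 0.119) were fitted higher. In Stat3, Thrb hep-/- mouse 1 was the highest of all mice, at 274 normalized CPM, and the other Thrb hep-/- mice lay below every wild-type mouse.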

How the data were processed

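Libraries of total liver RNA from 5 wild-type and 5 Thrb hep-/- mice were used, grouped by the genotype in the labels. The authors mapped reads on mm10 with HISAT2 2.2.1 and counted them per gene with HTSeq 0.9.1 on Ensembl release 102, in union mode, without strand and at a minimum alignment quality of 10, and the deposited values are raw counts. Reads fitting several genes or places were not counted. The authors' own table of fold changes and p-values from edgeR 3.36.0 was not used.

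Counts were fitted with edgeR 4.0.16 in R 4.3.3 over genes that reached 1 CPM in 5 or more libraries, with TMM factors and the robust quasi-likelihood F-test. P-values were adjusted by the Benjamini-Hochberg method over all 12234 genes, and 0.15 was the threshold after the study's methods. Standard errors are the log2 fold change over the square root of F. Library sizes scaled by TMM underlie the normalized CPM, and TPM use exon lengths of GENCODE M21 on GRCm38, which is another release than the authors counted on. Promoter windows come from RefSeq on GRCm38.p6. The scripts were tested on simulated data.

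Genes are named with values per mouse if they passed 0.15, had an unadjusted p under 0.05 or the highest mean CPM of their role, and also Thrb, the macrophage-made C1q genes, C4a, Cfd and C7, the last of which were chosen after their values were seen, as were Clec4f, Saa1, Adipoq and Plin1, the standard markers shown beside them. The members and lists were chosen with earlier results of these data known. P-values set the difference between genotypes against the spread between these mice. Alternatives were RLE factors, DESeq2 1.42.0, limma-voom 3.58.1, the likelihood ratio test, no filter, filterByExpr, a replicate block, an acute-phase component as covariate and leaving out each mouse. Leaving out the libraries with fat cell transcripts or the 2 highest in Saa1, and a Kupffer cell component, were added after seeing the data.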

Additional observations from a re-analysis of the deposited data

Results flagged for a closer look

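The total counts of Thrb hep-/- mouse 2, 27779196, lay far from those of the other 4 Thrb hep-/- mice, which were between 28441288 and 28590704. The gap to the nearest of them was 0.816 of the whole range of the group. Of 82 groups of 5 values examined in this way, for the 40 complement genes and the total counts in each genotype, this was the 1 that stood out, and about 1 in 20 would by chance.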

How the results depend on the processing

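In the main analysis 5 complement genes, all hepatocyte-made, and 499 of all genes passed 0.15. With RLE factors the same 5 and 503 of all genes passed. DESeq2 gave 11 complement genes, all hepatocyte-made, and 885 of all genes, limma-voom 11 and 849, and the likelihood ratio test 9 and 683. Without a filter 10 complement genes, 8 of them hepatocyte-made, and 641 of all genes passed. With the replicate number as a block 3 complement genes (C2, C4b and Hc) and 348 of all genes passed. The numbers do not pair the mice: deviations of same-numbered mice correlated between −0.20 and 0.0091, and 0 mice correlated best with their own number. With the acute-phase component 0 complement genes and 8 of all genes passed, and the median of hepatocyte-made genes was −0.0047. At an adjusted p of 0.05, 1 complement gene and 165 of all genes passed. Leaving out each mouse gave 1 to 7 complement genes, as for the hepatocyte-made ones, 0 to 3 macrophage-made ones and 222 to 665 of all genes. The lowest counts were 1 without Thrb hep-/- mouse 3 (Hc), 2 without wild-type mouse 2 (C2 and Hc) and 2 without wild-type mouse 5 (Hc and C8a), and 3 were left without Thrb hep-/- mouse 4 or 5. In those fits 222, 227, 239, 346 and 390 of all genes passed, in the same order. Of the alternatives added later, leaving out the 3 Thrb hep-/- libraries with fat cell transcripts left 3 complement genes and 173 of all genes. Leaving out the 2 libraries highest in Saa1 left 0 and 88, and the Kupffer cell component left 1 and 166, with a median of the macrophage-made genes of 0.15. The lost calls kept their direction, with log2 fold changes from −0.61 (Hc) to −0.39 (C4bp) without the 2 libraries and from −0.60 (C4b) to −0.43 (C2) with the Kupffer cell component, and without the libraries with fat cell transcripts they were −0.70 (C4b), −0.51 (C8a) and −0.34 (C4bp). With DESeq2, limma-voom, the likelihood ratio test, no filter and filterByExpr, no macrophage-made gene passed.

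Signs turned for genes that had not passed. With the acute-phase component the log2 fold change was 0.0012 for C1qa, 0.25 for C3, 0.039 for Cfi and 0.082 for Mbl2. With the Kupffer cell component it was 0.26 for C1qa, 0.15 for C1qc, −0.019 for C4a, 0.19 for Cfp, 0.065 for Mbl2, 0.41 for Fcna, −0.026 for Cr1l and 0.0083 for Vsig4. Without the libraries with fat cell transcripts it was 0.17 for Mbl2 and 0.079 for Fcna, and without the 2 highest in Saa1 it was 0.030 for Mbl2 and −0.021 for Cr1l. Cr1l was at −0.0021 with limma-voom and −0.0025 without a filter, and with each mouse left out ranged from −0.038 to 0.049, and Fcna from −0.33 to 0.025. The causes were not tested. Depth limits C7, Cfd, C5ar1 and Cd46, which lie near 1 CPM or below in most mice.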
